A study of Mus musculus with 17 samples.

Results

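Mouse miR-125a and miR-125b are together called the miR-125 family here. The 5 rows whose names carry miR-125a or miR-125b were taken from a table of 1033 mature microRNAs (miRNAs): mmu-miR-125a-5p, mmu-miR-125a-3p, mmu-miR-125b-5p, mmu-miR-125b-1-3p and mmu-miR-125b-2-3p, with the species prefix mmu mostly left out below. All 5 passed the filter on low values that left 521 miRNAs for testing. They were measured by small RNA sequencing in the mouse embryonic stem cell (ESC) lines D3 and B8. Analysed were 3 libraries of D3 ESCs at day 0, 2 of D3 embryoid bodies at day 7, 3 of D3 embryoid body outgrowths at day 21, 3 of B8 embryoid bodies at day 7 and 3 of B8 ESCs at day 0. Day 0 cells were undifferentiated and grew feeder-free with serum and LIF, the cytokine that keeps ESCs undifferentiated. Differentiating cells of both lines, started as hanging drops, were kept in KO-DMEM without LIF and with RA (retinoic acid), ITS (insulin, transferrin, selenium) and N2. No genetic change is labelled in any group, and the labels name neither the strain nor the clone of a line, so a difference between lines is one between 2 single lines. The labelled B8 samples of day 21 were not analysed here.

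A miRNA guides an Argonaute protein to messenger RNAs that pair with its seed, the bases near its 5′ end, and these messages are then repressed. miR-125 is the vertebrate counterpart of lin-4, a regulator of developmental timing in Caenorhabditis elegans. In mouse and human cells it represses Lin28, the RNA-binding protein that holds back let-7 maturation, and it is known for its rise during neural differentiation and for its part in blood stem cells. A precursor hairpin yields a 5p and a 3p arm. In this family the 5p arm is the guide strand by convention, and the 3p arm is the passenger strand.

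The mature sequences are shown because they decide which members can be told apart. All 5 matched RefSeq entries on the GRCm38.p6 build. Sequences run 5′ to 3′, with the seed, bases 2 to 8, in capitals. miR-125a-5p and miR-125b-5p share their seed and their first 13 bases as well as their last 5 bases. The 3p arms differ in their seeds, and they are given with the miR-351-5p sequence, which has the seed of the 5p arms.
miR-125a-5p: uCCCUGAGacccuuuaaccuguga
miR-125b-5p: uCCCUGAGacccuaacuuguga
miR-351-5p: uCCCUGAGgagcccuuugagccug
miR-125a-3p: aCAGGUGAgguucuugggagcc
miR-125b-1-3p: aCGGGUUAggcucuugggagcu
miR-125b-2-3p: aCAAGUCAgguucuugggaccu

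miR-125b-5p is cut from both the Mir125b-1 and the Mir125b-2 hairpin with an identical sequence of 22 bases, so its value sums over both genes. The 3p arms do differ between these genes: miR-125b-1-3p and miR-125b-2-3p are identical at 17 of 22 positions and carry different seeds. They therefore report on the copies one by one. miR-125a-3p is identical to miR-125b-1-3p at 18 positions and to miR-125b-2-3p at 18 positions. The rule by which reads matching more than 1 entry were counted is not given in the sources used here, so close pairs could have shared reads. The hairpins of Mir125a and Mir125b-1 are shown for the place of the arms, with the mature arms in capitals.
Mir125a: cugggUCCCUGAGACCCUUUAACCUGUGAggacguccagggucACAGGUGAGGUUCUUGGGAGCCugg
Mir125b-1: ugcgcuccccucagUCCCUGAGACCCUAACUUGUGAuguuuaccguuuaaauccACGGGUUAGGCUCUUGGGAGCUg

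Each gene sits in a cluster of 3 precursors on the plus strand of GRCm38, with a member of the miR-99 and miR-100 family upstream, a let-7 gene next and miR-125 last. Mir125a (chr17:17830812-17830879) follows Mir99b and Mirlet7e within 692 bp in the protein-coding gene Spaca6, where 1 of 16 annotated transcripts has an exon over Mir125a and the others have none. Mir125b-1 (chr9:41581926-41582002) lies in introns of the non-coding genes 3110039I08Rik and Gm49317 and in the exon of the sense-intronic transcript Gm28119, 50578 bp from the start of Mir100 to its own end, with Mirlet7a-2 between them. Mir125b-2 (chr16:77646273-77646343) lies in an intron of the non-coding host gene Mir99ahg, with Mir99a and Mirlet7c-1, over 47408 bp. On chromosome 17 the 3 hairpins are thus much closer together than in either miR-125b cluster.

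The table's values are miRNA reads scaled by 1 factor per library, and values are on this deposited scale unless stated otherwise. D3 libraries held 56377 to 129486 recovered miRNA reads (day 0), 1008438 to 1060306 (day 7) and 547213 to 743039 (day 21). B8 libraries held 141823 to 256613 (day 7) and 138397 to 275271 (day 0). Column totals differed up to 17.7-fold, and the median over all miRNAs shifted with them on the deposited scale, by a log2 of 2.25 in D3 between days 7 and 0. Changes are therefore given also on a relative scale, in which libraries were divided by median-of-ratios factors and the median over all miRNAs stayed between -0.10 and 0.47 in the 7 comparisons. In D3 the miRNAs miR-10a and miR-10b alone took 63.4% and 67.2% of the signal at day 7, against 0.0807% to 0.160% at day 0. In B8 they took 42.0% to 47.0% at day 7, against 0.579% to 0.660% at day 0. Shares of the whole are therefore lowered at day 7 in both lines. All 6 markers listed for pluripotent cells were above 3 reads in every day 0 library of both lines. In every D3 library of days 7 and 21 this was also so, hence it does not tell day 0 apart there. Their summed share was 8.46% to 10.7% in D3 at day 0, 0.301% to 0.325% at day 7 and 0.604% to 0.660% at day 21. In B8 it was 10.3% to 12.6% at day 0 and 0.883% to 2.76% at day 7. As deposited, miR-302a-3p, miR-302b-3p and miR-302d-3p were instead higher in D3 at day 21 than at day 0. miR-302d-3p had 248 to 444 against 43.3 to 73.3. These are bulk samples, so more cells that express a miRNA and more of it per cell cannot be told apart.

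The summed family took 0.185% ± 0.0257 of the miRNA signal in D3 at day 0, 0.937% ± 0.0621 at day 7 (n = 2) and 1.46% ± 0.158 at day 21 (SD, n = 3 otherwise). It took 0.846% ± 0.192 in B8 at day 7 and 0.444% ± 0.0308 in B8 at day 0 (SD, n = 3 each). The family was thus a small part of the miRNA pool in every group, and its share was lowest in undifferentiated D3 cells. The 5p arms made up 75.5% to 93.0% of the family signal in single libraries.

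mmu-miR-125a-5p, the guide strand of Mir125a, was the most abundant member in all 14 libraries. In D3 it had values of 119.5, 103.5 and 68.3 at day 0, 5067 and 4827 at day 7, and 1926, 1852 and 2406 at day 21. In B8 it had 1515, 836 and 952 at day 7, against 350, 347 and 320 at day 0. No 2 of the 5 groups overlapped, and undifferentiated D3 cells were lowest. As a share of miRNA signal, which the library factors do not touch, it averaged 0.161%, 0.639% and 0.919% in D3 at days 0, 7 and 21, and 0.631% in B8 at day 7 against 0.244% in B8 at day 0. On the relative scale the order was D3 day 7 (mean 1957 ± 60.8, n = 2), D3 day 21 (1349 ± 111), B8 day 7 (1188 ± 267), B8 day 0 (318 ± 3.14) and D3 day 0 (186 ± 31.2; SD, n = 3 otherwise). The libraries of D3 day 21 and B8 day 7 overlapped on this scale, and the other neighbours did not.

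mmu-miR-125b-5p, the guide strand made by both miR-125b genes, was close to the limit of counting in D3 ESCs. Its values in D3 were 2.59, 3.77 and 5.83 at day 0, from 5, 7 and 7 reads, then 1148 and 1034 at day 7 and 627, 684 and 871 at day 21. In B8 it had 212.4, 136 and 165 at day 7, against 155, 140 and 126 at day 0. The D3 groups did not overlap each other, whereas the B8 groups did. As a share of miRNA signal it averaged 0.00731%, 0.141% and 0.322% in D3 at days 0, 7 and 21, and 0.0983% in B8 at day 7 against 0.101% in B8 at day 0. On the relative scale the order was D3 day 21 (mean 474 ± 21.3), D3 day 7 (432 ± 30.4, n = 2), B8 day 7 (186 ± 22.9), B8 day 0 (131 ± 7.03) and D3 day 0 (8.40 ± 5.09; SD, n = 3 otherwise). Between D3 day 21 and day 7, and between B8 day 7 and day 0, the differences did not pass the test on this scale. Neither of these pairs of groups overlapped on it, by a small margin for D3.

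**Figure D1:**
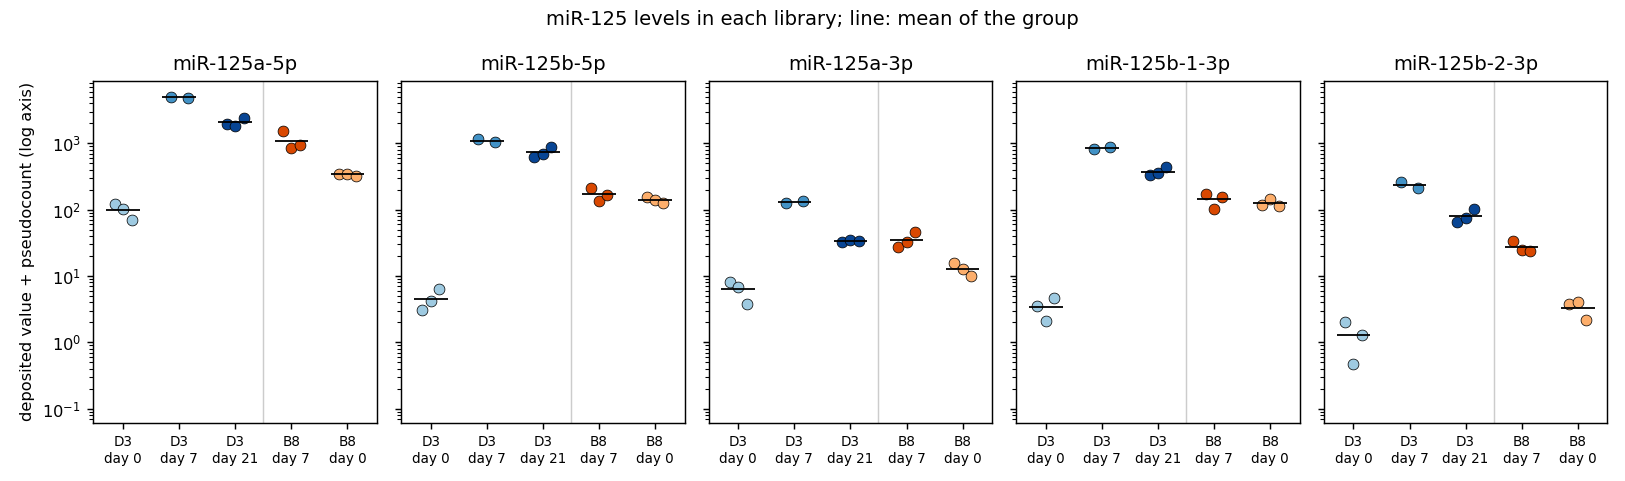
Value of each miR-125 member in each library, as the deposited value plus a pseudocount of 0.48 on a log axis, with a line at the group mean. miR-125b-5p and miR-125b-1-3p lie at similar heights in B8 at days 7 and 0 and lowest in D3 at day 0, while miR-125a-5p and miR-125b-2-3p are higher in B8 at day 7 than at day 0.

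In B8 only some members were called, and how many depended on the scaling. By limma with Benjamini-Hochberg adjustment over the 521 miRNAs, 3 of 5 members rose between day 0 and day 7 on both scales, against 21.9% of all miRNAs tested on the deposited scale and 26.9% on the relative scale. The median over the members was 1.46 (relative 1.68), beside -0.21 (relative -0.04) over all miRNAs. miR-125a-5p rose by a log2 change of 1.65 ± 0.25 (SE; limma adjusted p = 4.3e-06; relative 1.88). miR-125b-5p had a log2 change of 0.27 ± 0.26 with a 95% interval of -0.28 to 0.81 (limma adjusted p = 0.41; relative 0.49, adjusted p = 0.13). Its call depends on the scaling: the edgeR test on recovered reads gave 0.50 (adjusted p = 0.039), while equal column totals turned its sign, at -0.043 (limma adjusted p = 0.91).

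In D3 all 5 members rose between day 0 and day 7 on both scales, in a setting where 70.4% of all miRNAs were called higher on the deposited scale and 36.1% on the relative scale. The median over members was 7.77 (relative 5.75), beside 2.25 (relative 0.26) over all miRNAs. The relative log2 change was 5.75 ± 0.30 for miR-125b-5p and 3.41 ± 0.19 for miR-125a-5p (SE; limma adjusted p = 2.4e-11 and 4.6e-11). All 5 were also higher at day 21 than at day 0, where the background was 65.3% of miRNAs (relative 38.2%). The relative change to day 21 was 5.88 ± 0.27 for miR-125b-5p and 2.87 ± 0.17 for miR-125a-5p (limma adjusted p = 2.3e-12 and 6.8e-11). With equal column totals the day 21 call of miR-125a-3p was lost, at 0.65 (limma adjusted p = 0.061). The day 0 libraries serve both D3 comparisons, which are therefore not independent of each other.

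Between day 7 and day 21 in D3 the direction depended on the scale. As deposited, 4 of 5 members were lower at day 21, against a background of 31.5% of miRNAs lower, and the exception was miR-125b-5p with a log2 change of -0.60 ± 0.30 (limma adjusted p = 0.12). On the relative scale 2 of 5 were lower, against 10.7% of all miRNAs: miR-125a-5p by -0.54 ± 0.19 (limma adjusted p = 0.038) and miR-125a-3p by -1.22 ± 0.32 (limma adjusted p = 0.0081). miR-125b-5p had a relative change of 0.13 ± 0.30 (limma adjusted p = 0.79). With equal column totals none was called lower and miR-125b-5p was higher by 1.19 (limma adjusted p = 0.0064), while miR-125a-5p turned to 0.52 (limma adjusted p = 0.065). With those totals 198 of 521 miRNAs were called higher and 11 lower, and the median over all miRNAs was 0.89. The edgeR test on recovered reads did not call miR-125a-5p, at -0.34 (adjusted p = 0.23). The miR-10a and miR-10b share, which weighs on equal totals, was 11.6% to 14.02% at day 21.

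The lines differed at day 0, with larger differences for miR-125b-5p and miR-125b-1-3p than for the other members. D3 ESCs were lower than B8 ESCs in 5 of 5 members as deposited and in 3 of 5 on the relative scale, against 46.1% and 15.9% of all miRNAs. miR-125b-5p differed by -5.01 ± 0.26 (limma adjusted p = 7.4e-14; relative -4.04 ± 0.27, adjusted p = 2.7e-09). miR-125a-5p differed by -1.84 ± 0.25 (limma adjusted p = 1.5e-06; relative -0.78 ± 0.17, adjusted p = 0.0018). miR-125b-2-3p differed by -1.57 ± 0.42 (limma adjusted p = 0.0031), a call lost on the relative scale (-0.94, limma adjusted p = 0.21) and with equal column totals (-1.09, limma adjusted p = 0.28). The level of miR-125b-5p in D3 ESCs rests on 19 reads in all, against 664 in B8 ESCs. Along with it, the 4 mesenchyme and smooth muscle markers (miR-199a-3p, miR-214-3p, miR-143-3p, miR-145a-5p) summed to 108 to 127 in D3 ESCs and 1800 to 2189 in B8 ESCs, and miR-214-3p was at 0 in every D3 day 0 library. At later days their sum was 5571 to 6443 (D3 day 7), 7005 to 13896 (D3 day 21) and 644 to 1279 (B8 day 7), and its part in the miR-125b values was not tested. The sum is mostly miR-143-3p and miR-199a-3p, and miR-214-3p went another way, with 92 to 152 in B8 at day 7 against 22.8 to 23.3 in B8 at day 0, and with 428 to 490 at day 7 and 153 to 260 at day 21 in D3. Of the 3 neural markers (miR-9-5p, miR-124-3p, miR-219a-2-3p), summed values were 5.69 to 17.2 in D3 ESCs and 31.1 to 37.5 in B8 ESCs, with 9446 to 11361 in D3 embryoid bodies, 1135 to 1861 in D3 outgrowths and 1593 to 2343 in B8 embryoid bodies. Most of this sum is miR-9-5p, and miR-124-3p stayed between 0 and 7.87 in all libraries. The 4 blood markers also differed at day 0, with sums of 0.833 to 2.07 in D3 ESCs and 29.4 to 39.5 in B8 ESCs. In B8 ESCs that sum was miR-142a-3p alone. At later days the blood sum was 0 to 0.783 (D3 day 7), 6.19 to 7.56 (D3 day 21) and 1.37 to 3.92 (B8 day 7). Its relation to miR-125b was not tested.

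At day 7 all 5 members were higher in D3 than in B8 as deposited, as were 66.0% of all miRNAs, and 4 of 5 on the relative scale, against 25.1%. The relative difference was 1.22 ± 0.30 for miR-125b-5p (limma adjusted p = 0.0036) and 0.74 ± 0.19 for miR-125a-5p (limma adjusted p = 0.0041). With equal column totals no member was called, with differences of 0.53 for miR-125b-5p (limma adjusted p = 0.26) and 0.052 for miR-125a-5p (limma adjusted p = 0.89), and edgeR did not call miR-125a-5p, at 0.45 (adjusted p = 0.10). Equal column totals gave 41 of 521 miRNAs called higher in D3 and 122 lower. Whether the lines differed in their change to day 7 was tested as an interaction, which was called in 5 of 5 members as deposited, beside 71.8% of all miRNAs, and in 4 of 5 on the relative scale, beside 20.7%. Its relative size was 5.26 ± 0.40 for miR-125b-5p (limma adjusted p = 2.6e-08) and 1.53 ± 0.25 for miR-125a-5p (limma adjusted p = 0.00014). With equal column totals the miR-125b-5p value was 4.43 (limma adjusted p = 5.3e-07), while miR-125a-5p at 0.65 (limma adjusted p = 0.10) and miR-125b-2-3p at 2.07 (limma adjusted p = 0.14) were no longer called. Over all 521 miRNAs 52 had a higher and 107 a lower called interaction there, with a median of -0.31.

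**Figure D2:**
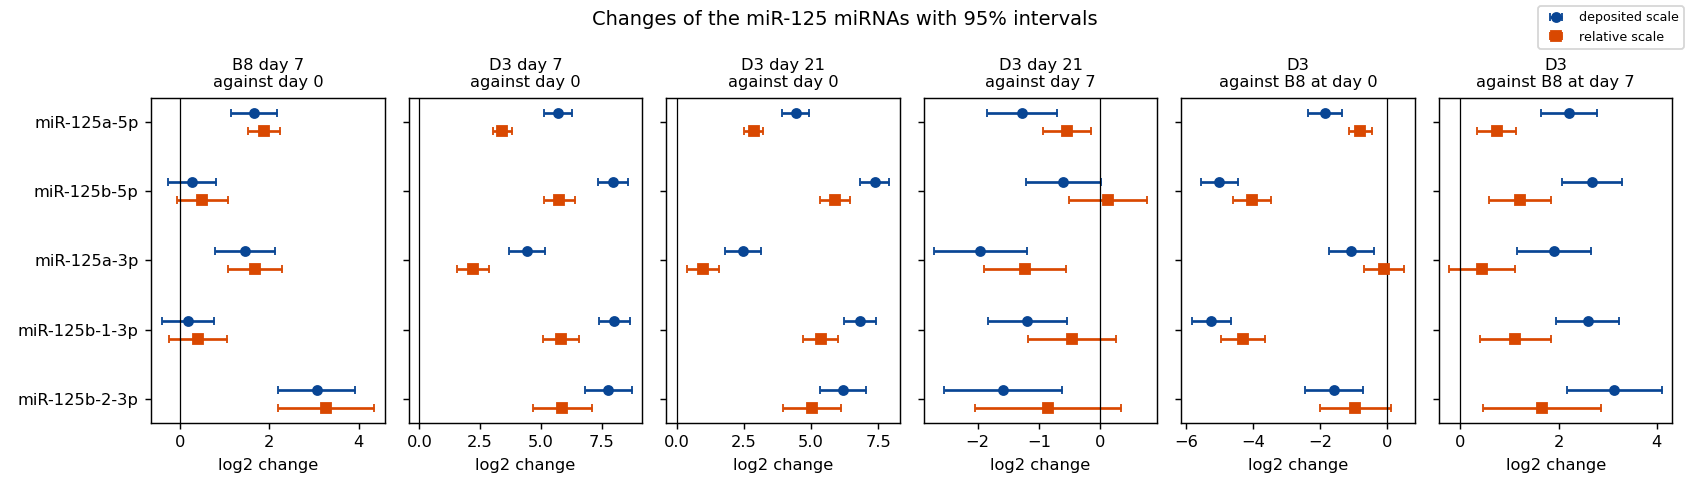
Log2 changes of the 5 members in 6 comparisons with 95% intervals from limma, on the deposited scale (circles) and the relative scale (squares), with a line at 0. For B8 between days 7 and 0 the intervals of miR-125b-5p and miR-125b-1-3p cross 0 on both scales, and for D3 against B8 at day 0 these 2 members lie farthest to the left.

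A ratio of 2 miRNAs within a library does not depend on the library factor, although any difference in capture between sequences enters its size and was not tested. miR-125b-5p amounted to 4.78% ± 3.33 of miR-125a-5p in D3 at day 0, 22.0% ± 0.871 at day 7 (n = 2) and 35.2% ± 2.35 at day 21 (SD, n = 3 otherwise). In B8 it amounted to 15.9% ± 1.68 at day 7, against 41.4% ± 2.62 at day 0 (SD, n = 3 each). The ratio thus increased along the D3 days and was lower at day 7 than at day 0 in B8, and no compared groups overlapped in any of the 6 comparisons. The exact permutation test gave p = 0.1 for 3 against 3 libraries and p = 0.2 for 2 against 3, which are the smallest values these designs allow. Over 48 tests of 8 such ratios the smallest adjusted p was 0.259, so none passed the threshold. Without overlap were 35 of the 48, but other pairs of miRNAs were not tested, so this count has no background. The tests share libraries, and 7 of the 8 ratios were chosen after their values were seen.

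**Figure D3:**
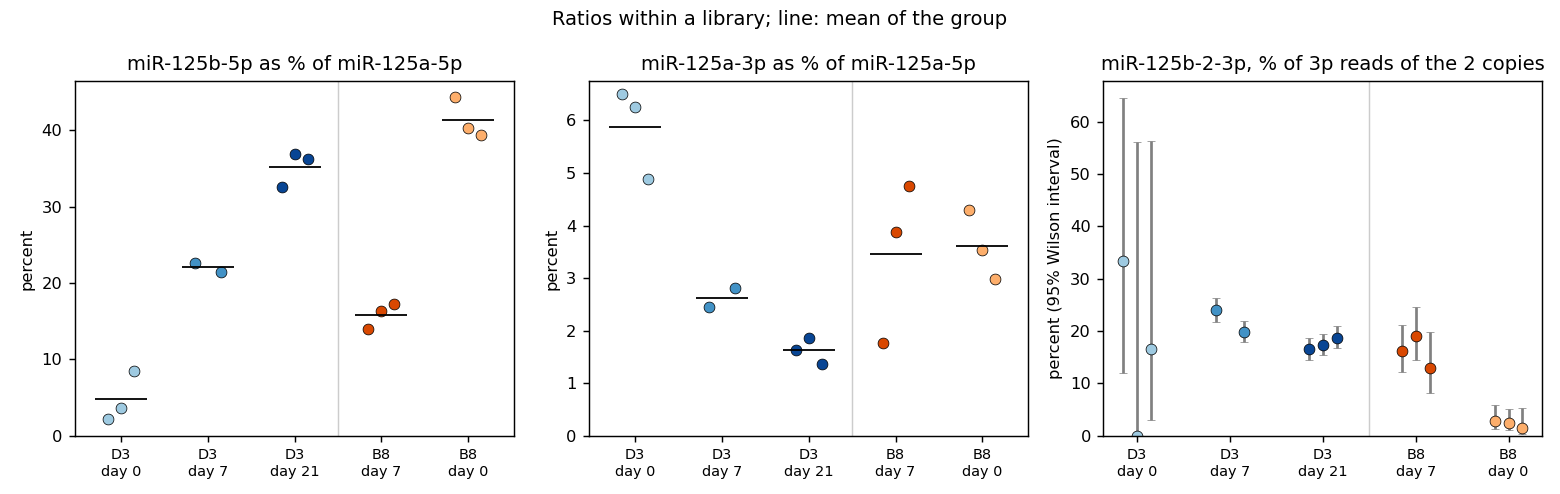
Within-library ratios in percent, with a line at the group mean in the first panels: miR-125b-5p over miR-125a-5p, miR-125a-3p over miR-125a-5p, and the share of miR-125b-2-3p among the 3p reads of both miR-125b genes with 95% Wilson intervals. The left panel shows B8 at day 7 between 14.02% and 17.3%, below B8 at day 0 at 39.5% to 44.4%, and the points of B8 at day 0 in the right panel lie below 3%.

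The passenger strand of Mir125a was scarce beside its guide. mmu-miR-125a-3p had 7.76, 6.47 and 3.33 in D3 at day 0, 124 and 135 at day 7 and 31.5, 34.5 and 33.0 at day 21. It had 26.7, 32.4 and 45.3 in B8 at day 7, against 15.0, 12.3 and 9.50 in B8 at day 0. Values were highest in D3 at day 7, and the B8 groups did not overlap. It rose in B8 by 1.46 ± 0.33 (limma adjusted p = 0.00057; relative 1.68) and in D3 to day 7 by 4.43 ± 0.37 (limma adjusted p = 7.0e-11; relative 2.20). D3 and B8 ESCs differed by -1.06 ± 0.33 (limma adjusted p = 0.009), a difference of -0.07 on the relative scale (limma adjusted p = 0.90). That call was also lost without B8 day 0 replicate 1, at -0.91 (limma adjusted p = 0.054), and without D3 day 0 replicate 3, at -0.73 (limma adjusted p = 0.079). As a share of its guide it amounted to 5.87% ± 0.871 in D3 at day 0, 2.62% ± 0.255 at day 7 and 1.62% ± 0.246 at day 21, with no overlap among the 3 days (exact permutation p = 0.1 for day 21 against day 0). In B8 it was 3.47% ± 1.54 at day 7 and 3.60% ± 0.662 at day 0, with overlap.

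mmu-miR-125b-1-3p, the passenger strand of Mir125b-1, had values of the same order as the guide it is cut with. Its values were 3.11, 1.62 and 4.17 in D3 at day 0, 821 and 870 at day 7, and 328, 352 and 438 at day 21. They were 171, 102 and 156 in B8 at day 7, against 117, 142 and 115 in B8 at day 0. The B8 groups overlapped, and the log2 change of 0.17 ± 0.28 did not pass the test (95% interval -0.41 to 0.75; limma adjusted p = 0.62; relative 0.40), turning to -0.14 with equal column totals. D3 ESCs were lower than B8 ESCs by -5.25 ± 0.28 (limma adjusted p = 8.1e-14; relative -4.30), a difference close in size to that of miR-125b-5p. miR-125b-5p amounted to 152% ± 75.7 of miR-125b-1-3p in D3 at day 0, 129% ± 14.8 at day 7 and 195% ± 3.79 at day 21. In B8 this ratio was 121% ± 14.3 at day 7, against 114% ± 17.6 at day 0. The day 21 libraries of D3 stood above those of day 7 without overlap, at the smallest exact permutation p of 0.2 for this design.

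mmu-miR-125b-2-3p, the passenger strand of Mir125b-2, rose in B8, where the other miR-125b entries did not pass the limma test on the deposited or the relative scale. Its values in B8 were 32.9, 24.1 and 23.3 at day 7, against 3.34, 3.51 and 1.73 at day 0, from 42, 43 and 17 reads and from 6, 6 and 2 reads. It rose by 3.06 ± 0.42 (limma adjusted p = 1.2e-06; relative 3.27), and the groups did not overlap. In D3 it had 1.55, 0 and 0.833 at day 0, from 3, 0 and 1 reads, then 258 and 215 at day 7 and 64.8, 74.0 and 101 at day 21. The fitted D3 change to day 7 was 7.77 ± 0.47 (limma adjusted p = 1.8e-13; relative 5.88) and depends on the pseudocount, with 9.18 and 6.25 at the lower and higher pseudocounts tried. As deposited it was lower at day 21 than at day 7 in D3 by -1.58 ± 0.47 (limma adjusted p = 0.0092). That call was lost on the relative scale, at -0.85 (limma adjusted p = 0.30). With equal column totals the sign turned, at 0.20 (limma adjusted p = 0.85). The lower pseudocount also lost the call, at -1.59 (limma adjusted p = 0.28), whereas the higher one kept it, at -1.56 (limma adjusted p = 0.00017). Without D3 day 7 replicate 2 the value was -1.45, where 1 library was left at day 7 and was assumed to vary like the other groups.

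Because the 3p arms name the copy, their reads show how the signal divided between the miR-125b genes. miR-125b-2-3p took 16.1% ± 3.03 of the 3p reads of both copies in B8 at day 7, against 2.22% ± 0.668 in B8 at day 0 (SD, n = 3 each). Summed over libraries these were 102 of 617 reads (16.5%, 95% Wilson interval 13.8% to 19.7%) at day 7 and 14 of 600 reads (2.33%, 1.39% to 3.88%) at day 0. In D3 the share was 22.2% of only 18 reads at day 0 (95% Wilson interval 9.001% to 45.2%), 21.9% ± 2.89 at day 7 and 17.5% ± 1.13 at day 21. B8 ESCs were the group with the lowest share, below every other group's libraries except 1 D3 day 0 library with 0 of 3 reads. These intervals hold for counting error alone, because PCR copies of a read are not independent molecules. The ratio of the copies differed between B8 days 7 and 0 by a log2 of 2.89 (exact permutation p = 0.1, adjusted 0.259 over the 48 tests; without overlap). These shares rest on passenger strands alone, and how the shared guide strand divides was not measured.

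The cluster partners give the other products of the same loci. Of 12 partner names 9 were tested, since miR-99a-3p and miR-100-3p were below the filter and let-7a-2-3p was no row of the table. let-7a-5p and let-7c-5p are also made from loci outside these clusters, so they do not report on them alone. In B8 8 of 9 partners rose between day 0 and day 7 as deposited and 9 of 9 on the relative scale, beside 21.9% and 26.9% of all miRNAs. In D3 9 of 9 rose between these days on both scales, beside 70.4% of all miRNAs (relative 36.1%). In D3 ESCs 8 of 9 partners were lower than in B8 ESCs as deposited, and 6 of 9 on the relative scale, beside 46.1% and 15.9% of all miRNAs.

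On chromosome 9 the only tested partner made from that cluster alone, miR-100-5p, did not follow miR-125b-1-3p in B8. miR-100-5p, the most upstream miRNA of that cluster, had 347, 193 and 283 in B8 at day 7, against 37.8, 39.2 and 19.0 in B8 at day 0. It rose by 3.11 ± 0.45 (limma adjusted p = 2.8e-06; relative 3.34), while miR-125b-1-3p changed by 0.17. miR-100-5p amounted to 191% ± 11.4 of miR-125b-1-3p in B8 at day 7, against 25.5% ± 8.12 in B8 at day 0 (SD, n = 3 each), without overlap and at an exact permutation p of 0.1. In D3 the same ratio was 129% ± 93.4, 135% ± 9.03 and 92.5% ± 26.1 at days 0, 7 and 21, and its day 0 value rests on 17 reads of miR-100-5p.

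On chromosome 16 miR-99a-5p also had few reads at day 0. It had 164, 135 and 167 in B8 at day 7, against 2.23, 2.93 and 5.18 in B8 at day 0, and rose by 5.38 ± 0.34 (limma adjusted p = 2.5e-12; relative 5.59). In D3 it had 1 read over all 3 day 0 libraries, then 905 and 778 at day 7 and 189, 284 and 358 at day 21, so no fold is given. Both miR-99a-5p and miR-125b-2-3p, which lie in the host gene Mir99ahg, were thus higher in B8 at day 7 than at day 0 without overlap.

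On chromosome 17 the proportions of the 3 miRNAs also shifted between groups. let-7e-5p, a let-7 family member, amounted to 28.9% ± 5.78 of miR-125a-5p in D3 at day 0, 81.4% ± 6.20 at day 7 and 104% ± 10.8 at day 21. In B8 it amounted to 124.8% ± 32.1 at day 7, against 70.8% ± 8.20 at day 0. It was thus lowest against miR-125a-5p in D3 ESCs, and higher at day 7 than at day 0 in both lines without overlap. miR-99b-5p amounted to 133% ± 39.0 of miR-125a-5p in B8 at day 7, against 289% ± 91.8 in B8 at day 0 (SD, n = 3 each; exact permutation p = 0.1). Its own B8 change of 0.55 ± 0.29 did not pass the test as deposited (limma adjusted p = 0.11), but did on the relative scale at 0.78 (limma adjusted p = 0.0075) and without B8 day 7 replicate 2 at 0.81 (limma adjusted p = 0.027). The 3p arm of the same hairpin, miR-99b-3p, rose in B8 by 1.58 ± 0.29 as deposited (limma adjusted p = 5.5e-05).

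**Figure D4:**
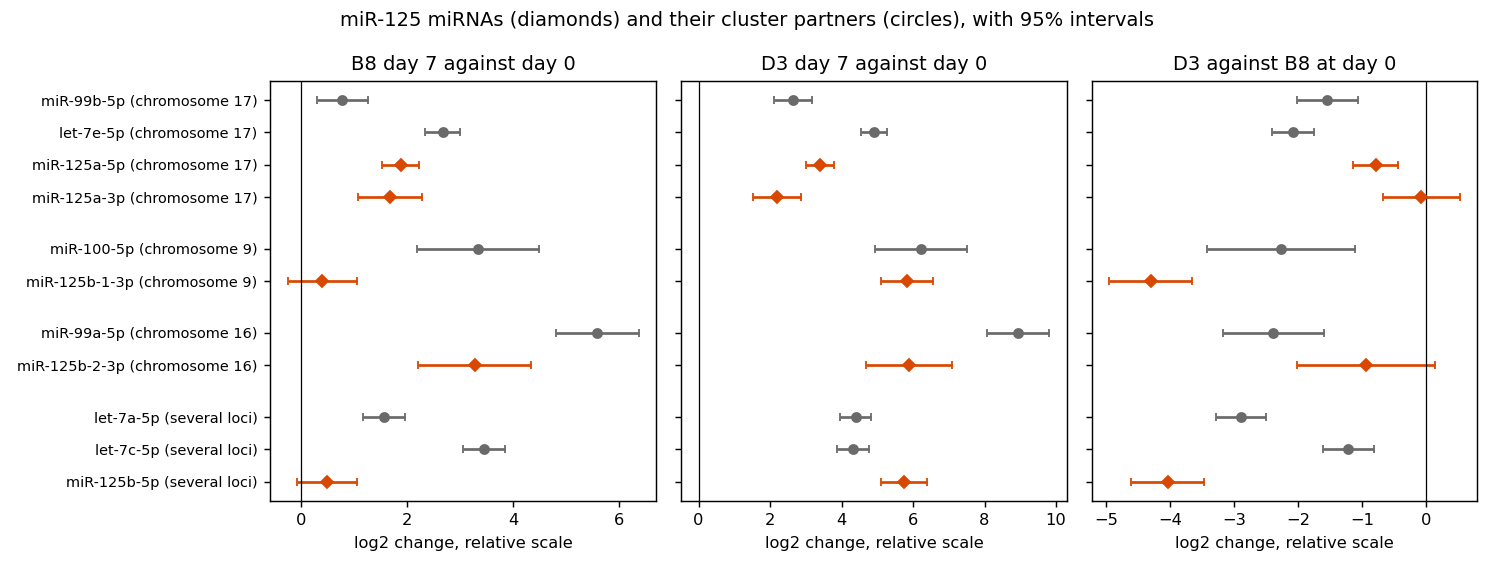
Log2 changes on the relative scale, with 95% intervals from limma, of the miR-125 members (diamonds) and their cluster partners (circles), by chromosome. In B8 the interval of miR-125b-1-3p crosses 0 while that of miR-100-5p from the same cluster lies above it; the D3 value of miR-99a-5p is fitted against 1 read at day 0 and depends on the pseudocount.

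Another miRNA with the miR-125 seed is miR-351-5p, which is not counted in the summed family above. Seeds could be read for the 873 of 1033 rows with a RefSeq mature sequence. Of 5 mature names that RefSeq lists with this seed, 3 are measured here, and miR-6367 and miR-6394 were not analysed. It lies on chromosome X outside the 3 clusters and shares only the first 8 bases with the miR-125 guides. Its values were 21.7, 18.9 and 11.7 in D3 at day 0, 1056 and 1196 at day 7 and 2068, 2115 and 2382 at day 21, and 495, 267 and 500 in B8 at day 7 against 50.6, 44.5 and 35.4 in B8 at day 0. It amounted to 17.8% ± 0.654, 22.8% ± 2.78 and 107% ± 7.60 of miR-125a-5p in D3 at days 0, 7 and 21, and to 39.0% ± 11.6 in B8 at day 7 against 12.8% ± 1.69 in B8 at day 0. At day 21 in D3 its reads were about as many as those of miR-125a-5p. It stood higher at day 21 than at day 7 by 0.96 ± 0.30 (limma adjusted p = 0.013; relative 1.69), a call lost without D3 day 7 replicate 2 (0.87, limma adjusted p = 0.12) or replicate 3 (1.05, limma adjusted p = 0.053). Either omission leaves 1 library at day 7, assumed to vary like the other groups, and the value moved little.

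The miRNAs whose group means followed each guide most closely were taken by the smallest root mean square log2 difference over the 5 groups, on the relative scale with each miRNA centred on its own mean. For miR-125a-5p these were let-7e-3p (0.19), miR-345-5p (0.23), miR-30c-2-3p (0.26), miR-1251-5p (0.27) and miR-301b-3p (0.28). For miR-125b-5p they were miR-125b-1-3p (0.27), miR-214-5p (0.37), miR-199b-3p (0.49), let-7a-5p (0.58) and miR-199a-3p (0.63). let-7e-3p, the passenger strand of a cluster partner, had 3 reads over all D3 day 0 libraries and was not among the 5 with equal column totals. miR-125b-1-3p is the passenger strand cut with the guide itself from Mir125b-1. On the deposited scale 3 and 4 of the 5 names stayed on the lists, and with equal column totals 3 and 2. miR-199a-3p and miR-199b-3p are near-identical entries, so their separate places on the list are uncertain.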

How the data were processed

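Small RNA libraries were analysed for 14 of 17 labelled samples in 5 of 6 groups of line and day. The deposited values are signal: reads per mature miRNA divided by 1 factor per library, with TMM named in the authors' table title. Per the submitters' processing notes, CASAVA, FastQC, Bowtie, Partek and mm10 were used, and per the file headers reads passed cutadapt and a length step; versions, settings and the rows behind the factors are not given in the sources used here. Whole reads were recovered, since 100% of values up to 1000 reads were whole multiples to within 0.01 read.

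The 521 of 1033 miRNAs whose mean reached 5 per 1000000 of the column total were tested on log2(value + 0.48), a pseudocount of 2 per 1000000 of the mean column total. limma 3.58.1 (R 4.3.3) fitted the means of 5 groups, leaving 9 residual degrees of freedom, with a trend in the prior variance. Tests were 2-sided moderated tests, adjusted over all 521 by Benjamini-Hochberg at 0.05. The relative scale divides libraries by median-of-ratios factors over 319 miRNAs above 0 in all libraries. Alternatives were edgeR 4.0.16 with TMM on the recovered reads, other scalings, filters and pseudocounts, a replicate block and leaving out each library. The limma and edgeR steps were tested on simulated data. Within-library ratios were tested with exact permutation tests (SciPy 1.17.1). Sequences are RefSeq entries on GRCm38.p6 and gene models GENCODE annotation of GRCm38, the build also known as mm10.

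The members and lists were chosen with earlier results of these data known, and 7 of the 8 ratios were chosen after their values were seen. Named were the 5 members, their cluster partners, miRNAs with the same seed and the 5 miRNAs most alike each guide. The labels do not say whether replicates were separate cultures, so the p-values rest on the spread of these samples alone, and that spread may be technical. Same-group libraries differed beyond sampling noise.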

Additional observations from a re-analysis of the deposited data

Results flagged for a closer look

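The change between day 0 and day 7 differed between D3 and B8 for all 5 members by an interaction test on the deposited scale. For miR-125b-1-3p the log2 difference of the changes, D3 minus B8, was 7.84 (limma adjusted p = 9.0e-14), and for miR-125b-5p it was 7.70 (limma adjusted p = 6.6e-14). It was 4.71 for miR-125b-2-3p (limma adjusted p = 4.7e-07), 4.05 for miR-125a-5p (limma adjusted p = 1.8e-09) and 2.97 for miR-125a-3p (limma adjusted p = 8.9e-06). The median over all miRNAs was 2.64 on this scale. On the relative scale, with a median of 0.47, the differences were 5.42, 5.26, 2.61, 1.53 and 0.52 in the same order, and that of miR-125a-3p no longer passed (limma adjusted p = 0.38). With equal column totals that of miR-125b-2-3p, at 2.07, did not pass either (limma adjusted p = 0.14). The miR-125b values rest on few reads in the D3 day 0 libraries: 5, 7 and 7 of miR-125b-5p, 6, 3 and 5 of miR-125b-1-3p, and 3, 0 and 1 of miR-125b-2-3p.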

How the results depend on the processing

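Scaling between libraries moved the results most. With equal column totals the signs turned for miR-125a-3p between the lines at day 0 (0.11), at day 7 (-0.23) and in the interaction (-0.34), for miR-125b-5p (-0.043) and miR-125b-1-3p (-0.14) in B8 at day 7 against day 0, and in D3 at day 21 against day 7 for miR-125a-5p (0.52), miR-125b-5p (1.19), miR-125b-1-3p (0.60) and miR-125b-2-3p (0.20). Calls were lost there for miR-125a-5p between the lines at day 7 (0.052) and in the interaction (0.65), and for miR-125b-5p (0.53) and miR-125b-1-3p (0.43) at day 7. They were also lost for miR-125b-2-3p at day 0 (-1.09), at day 7 (0.98) and in the interaction (2.07). In D3 miR-125a-3p at day 21 was no longer called against day 0 (0.65) or against day 7 (-0.18). The interaction stayed called in 2 of 5 members, beside 52 of 521 miRNAs called higher and 107 lower. With equal column totals the median over all miRNAs was -0.31 in the interaction and 0.89 in D3 at day 21 against day 7. In D3 at day 21 against day 7, miR-125b-5p turned to 0.13 with median-of-ratios factors and 0.33 by edgeR, and miR-125a-5p was no longer called by edgeR (-0.34, adjusted p = 0.23), nor between the lines at day 7 (0.45, adjusted p = 0.10). With column totals equalised over all miRNAs but miR-10a and miR-10b, miR-125a-3p turned to 0.10 between the lines at day 0, and miR-125b-5p in B8 became called (0.78, limma adjusted p = 0.026), as it did by edgeR (0.50, adjusted p = 0.039). The cause of these turns beyond the scaling factor itself was not tested.

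Counts of miRNAs called followed. Between the lines at day 0 they were 245 in the limma fit as deposited, 124 with median-of-ratios factors, 113 with equal totals, 116 with totals equal outside miR-10 and 119 by edgeR. Between the lines at day 7 they were 392, 218, 163, 205 and 216 in that order, and 261 with the filter at 50 per 1000000. For the interaction they were 387, 173, 159, 160 and 159. The filter at 50 per 1000000, which tests fewer miRNAs, left 251 of 403 calls in D3 at day 7 against day 0 and 258 of 393 at day 21 against day 0. For D3 at day 21 against day 7 the 206 calls became 136 with totals equal outside miR-10, and 116 to 220 on leaving out 1 library, the lowest without D3 day 7 replicate 2, where the lone day 7 library is assumed to vary like the other groups. With the replicate block the miR-125a-5p change in B8 was 1.65 and that of miR-125b-5p 0.27, and no call of a member guide or count moved past 1.5 times. Only 2 of 26 same-number pairs of libraries had deviations correlated above 0.1. With 2 or 3 libraries per group this cannot decide whether the numbers pair the samples. Low reads limit the D3 day 0 values of miR-125b.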
